A study of Mus musculus with 14 samples.

Results

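The genes described here encode the proteins of the mitochondrial ribosome, taken as every gene on the array whose symbol begins with Mrpl or Mrps and a number. Symbols that mark a pseudogene (ending in -ps, with or without a number) were left out, which removed 2 entries. The rule gave 76 genes, 48 Mrpl (large subunit) and 28 Mrps (small subunit), of 24675 genes with a symbol. The rule used names alone and no measured value.

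The study hybridised RNA of sorted mouse intestinal crypt cells to 14 Mouse Gene 2.0 ST arrays (Affymetrix), 1 per sample. Atg7 encodes an enzyme needed to form autophagosomes, the vesicles that carry cell contents to the lysosome. All mice carried a cassette at Lgr5 that drives EGFP and a tamoxifen-inducible Cre in intestinal stem cells, and all, WT included, were given tamoxifen daily for 5 days, 1 month before they were killed. Cells with low CD24 were sorted from single mice by EGFP: bright cells as stem cells, dim cells as their transit amplifying progeny. The groups were Atg7KO-High (floxed Atg7 on both alleles with the Lgr5 cassette, EGFP bright, n = 3), WT-High (the Lgr5 cassette and no floxed Atg7, EGFP bright, n = 3), Atg7KO-Low (the Atg7KO genotype, EGFP dim, n = 4) and WT-Low (the WT genotype, EGFP dim, n = 4). The sources used here do not give the age of the mice. Since Cre is active only in cells that express Lgr5, an Atg7KO-Low cell lacks Atg7 where it descends from a recombined stem cell. Samples carry the name of their group followed by the title's number, as in WT-Low-411. All values are log2 levels, and a difference of 1 is a doubling.

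Mitochondria keep a small genome of their own that encodes core subunits of the respiratory chain, and mitochondrial ribosomes translate its messages inside the organelle. Every protein of these ribosomes is encoded in the nucleus, made on cytosolic ribosomes and imported. Many have a counterpart in bacteria, and others arose in the mitochondrial lineage. Crypt stem cells and their dividing progeny are known to use mitochondrial respiration, and autophagy is one of the routes by which cells clear damaged mitochondria.

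The promoters of many genes for mitochondrial proteins hold sites for the factors NRF1, ETS family members such as GABP, and YY1, and the start regions of the mitochondrial ribosomal protein genes were read for these letters. RefSeq (GRCm38.p6) gave a start region, 250 bases before to 50 after the start, for 67 of the 76 genes. Both strands were searched, and a match says only that these letters are in the window. Shares are of genes with a start region, 11473 of the genes tested below and 27025 in all. A gene with several start regions was counted if any of them matched. The ETS motif CCGGAAG was in 24 of the 67 (35.8%), against 17.5% of genes tested and 9.93% of all genes with a start region. The NRF1 motif (GCGCA, any base, then GCGC) was in 13 (19.4%), against 9.90% of genes tested and 5.19% of all genes with a start region. The YY1 motif AAGATGGCG was in 8 (11.9%), against 3.04% of genes tested and 1.64% of all. In none of the 67 did sites of different motifs overlap. At least 1 of the motifs was in 39 of the 67 (58.2%). A second gene on the opposite strand started within 1000 bases of 24 of them (35.8%), against 17.7% of genes tested. The start regions of the 4 genes with the smallest p-values in the gate comparison of Atg7KO cells below are shown because the main calls rest on them, with motif sites in capitals. Mrpl36 (chr13:73330759-73331058, plus strand) holds a YY1 motif read on the reverse strand. Mrpl16 (chr19:11770165-11770464, plus strand) holds none of the motifs. Mrpl51 (chr6:125191950-125192249, plus strand) holds 1 ETS motif and starts opposite Ncapd2, a condensin subunit. Mrpl43 (chr19:45006393-45006692, minus strand) holds 2 ETS motifs and starts opposite Twnk, the mitochondrial DNA helicase.
Mrpl36: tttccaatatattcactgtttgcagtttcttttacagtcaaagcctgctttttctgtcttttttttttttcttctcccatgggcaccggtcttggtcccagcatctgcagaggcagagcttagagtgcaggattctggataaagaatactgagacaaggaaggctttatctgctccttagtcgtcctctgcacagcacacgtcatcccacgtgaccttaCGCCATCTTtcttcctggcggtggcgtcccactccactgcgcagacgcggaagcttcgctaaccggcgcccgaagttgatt
Mrpl16: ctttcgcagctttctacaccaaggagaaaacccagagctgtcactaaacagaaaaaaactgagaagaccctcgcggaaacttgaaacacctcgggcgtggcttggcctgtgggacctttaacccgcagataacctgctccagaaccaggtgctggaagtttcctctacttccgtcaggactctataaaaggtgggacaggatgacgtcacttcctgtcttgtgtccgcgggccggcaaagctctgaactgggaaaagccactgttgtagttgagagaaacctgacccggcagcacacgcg
Mrpl51: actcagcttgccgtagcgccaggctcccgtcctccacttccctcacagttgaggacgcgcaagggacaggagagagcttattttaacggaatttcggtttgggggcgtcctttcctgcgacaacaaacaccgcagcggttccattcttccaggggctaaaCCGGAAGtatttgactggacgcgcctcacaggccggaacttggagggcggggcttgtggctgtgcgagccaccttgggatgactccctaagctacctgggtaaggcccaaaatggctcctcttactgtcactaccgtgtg
Mrpl43: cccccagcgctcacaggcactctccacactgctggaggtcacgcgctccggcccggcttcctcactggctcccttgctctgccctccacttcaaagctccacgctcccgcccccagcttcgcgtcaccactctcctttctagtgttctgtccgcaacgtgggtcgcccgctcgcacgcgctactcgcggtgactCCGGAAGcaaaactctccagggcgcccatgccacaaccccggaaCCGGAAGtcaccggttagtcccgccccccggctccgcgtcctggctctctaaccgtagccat

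Of the 76 genes, 75 passed a level filter (3 or more arrays with a value no lower than that array's 40th percentile) and were tested with limma among 15873 genes. Mrpl23, the counterpart of a bacterial protein at the exit of the peptide tunnel, did not pass: its levels ran from 2.72 to 3.45, under the 40th percentile (3.75 to 3.98) on every array. Of the 75 genes, 47 lay in the top 20% of tested genes by mean level, 19 in the next 20% and 9 below. Because the genes are mostly of high level, shares are also given below for all genes of the top 20%.

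Lgr5, the locus that drives the EGFP used for the sort, was higher in EGFP high samples of both genotypes. All 11 stem cell markers tested, Lgr5 among them, had a higher mean in EGFP high in both genotypes. Markers of transit amplifying cells were not read. Lgr5 averaged 9.11 in Atg7KO-High and 5.79 in Atg7KO-Low, and 9.02 in WT-High and 5.50 in WT-Low. Atg7 averaged 6.14 in Atg7KO-High and 6.79 in WT-High (limma adjusted p = 0.208), and 5.89 in Atg7KO-Low and 6.91 in WT-Low (limma adjusted p = 0.166), with no overlap between genotypes in either gate. Whether the probes lie in the floxed part was not analysed here. The standard deviation of all values of an array was 1.90 to 1.98 in Atg7KO-High, 1.99 to 2.06 in WT-High, 1.98 to 2.04 in Atg7KO-Low and 1.90 to 2.06 in WT-Low. The mean of 8 goblet cell markers was 7.87 to 9.76 in Atg7KO-High, 9.42 to 10.01 in WT-High, 10.72 to 11.12 in Atg7KO-Low and 11.01 to 11.54 in WT-Low. The mean of 7 Paneth cell markers was 8.44 to 9.45 in Atg7KO-High, 10.11 to 11.25 in WT-High, 10.16 to 10.79 in Atg7KO-Low and 10.31 to 11.95 in WT-Low. That of 9 enterocyte markers was 7.61 to 7.86 in Atg7KO-High, 7.75 to 9.28 in WT-High, 8.80 to 9.99 in Atg7KO-Low and 9.02 to 9.70 in WT-Low. Of 8 leukocyte markers, 1 passed the level filter. Ptprc, Cd3g, Cd79a, Adgre1 and Itgax were in the table and below it.

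Taken as a mean over the 75 genes, mitochondrial ribosomal protein RNA was higher in Atg7KO-Low than in WT-Low and overlapped between the genotypes in the EGFP high gate. The mean level was 7.87, 7.78, 7.81 and 7.76 in Atg7KO-Low-356, Atg7KO-Low-353, Atg7KO-Low-387 and Atg7KO-Low-386, against 7.67, 7.58, 7.27 and 7.40 in WT-Low-341, WT-Low-407, WT-Low-409 and WT-Low-411. Each Atg7KO-Low sample lay above each WT-Low sample. The mean level was 7.24, 7.33 and 7.54 in Atg7KO-High-356, Atg7KO-High-348 and Atg7KO-High-386, against 7.39, 7.85 and 7.66 in WT-High-388, WT-High-411 and WT-High-412. Atg7KO-High-386 lay above WT-High-388, and the other Atg7KO-High samples lay below all WT-High samples. Within Atg7KO every EGFP high sample lay below every EGFP low sample, and within WT the gates overlapped. In these bulk samples, fewer cells of a type and less RNA per cell cannot be told apart.

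**Figure D1:**
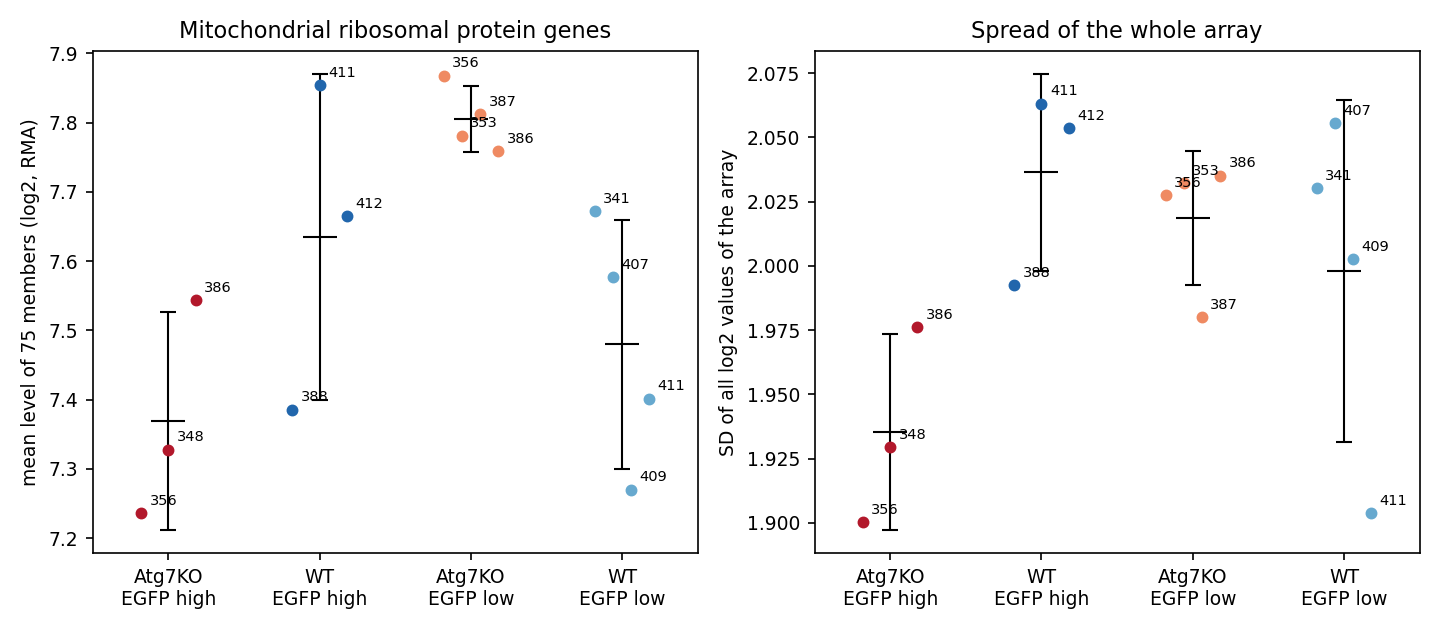
Mean log2 level of the 75 tested mitochondrial ribosomal protein genes on each of the 14 arrays (left, points labelled by the number in the sample title) and SD of all log2 values of each array (right), by group, with group means ± SD as bars (n = 3 in EGFP high and n = 4 in EGFP low groups). The 4 Atg7KO-Low samples lie between 7.76 and 7.87, above the 4 WT-Low samples at 7.27 to 7.67.

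The first comparison asked whether RNA of these genes differs with loss of Atg7 in the dim cells, sorted as transit amplifying cells. In the EGFP low gate 71 of the 75 genes had a higher mean in Atg7KO-Low than in WT-Low. So had 7991 of 15873 genes tested and 1916 of 3175 in the top 20% by level. The median difference was 0.31 (Atg7KO minus WT), against 0.00 over all genes tested and 0.06 over the top 20%. The quartiles of the 75 differences were 0.18 and 0.45. No single gene passed the test (limma, Benjamini-Hochberg adjusted over 15873 genes, adjusted p under 0.05), and 0.00630% of all genes passed in the higher direction, which is 1 gene. At an unadjusted p under 0.05, 21 of the 75 (28%) were higher, against 3.86% of all genes and 6.90% of genes in the top 20% by level, and 0 were lower, against 3.40% of all genes. The samples of the genotypes did not overlap, with Atg7KO-Low higher, for 11 genes (14.7%), against 1.71% of all genes and 3.46% of the top 20%. These were Mrpl14, Mrpl15, Mrpl19, Mrpl20, Mrpl22, Mrpl36, Mrpl43, Mrpl51, Mrpl58, Mrps25 and Mrps28. None was lower without overlap, against 1.69% of all genes. Of the 47 members in the top 20%, 12 (25.5%) were higher at an unadjusted p under 0.05. Among those 47, 4 (8.51%) did not overlap, against 3.46% of the top 20%: Mrpl15, Mrpl58, Mrps25 and Mrps28.

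The 4 genes with the smallest p were Mrpl36, Mrpl43, Mrps36 and Mrpl19. Mrpl36 read 7.71, 7.33, 7.82 and 7.62 in Atg7KO EGFP low samples, against 7.21, 6.85, 7.14 and 6.74 in WT EGFP low samples. Every Atg7KO-Low sample was above every WT-Low sample, and the difference was 0.63 ± 0.16 (SE, limma adjusted p = 0.467). Mrpl36 is a small zinc-binding protein of the large subunit with a bacterial counterpart of the same number. Mrpl43 read 6.64, 6.44, 6.83 and 6.85 in Atg7KO EGFP low samples, against 6.28, 6.02, 6.08 and 5.83 in WT EGFP low samples. Again the samples did not overlap, and the difference was 0.64 ± 0.16 (SE, limma adjusted p = 0.467). Mrpl43 is a large subunit protein with no bacterial counterpart. Mrpl19 read 7.53, 7.26, 7.44 and 7.56 in Atg7KO EGFP low samples, against 7.14, 7.09, 6.71 and 6.83 in WT EGFP low samples. These samples did not overlap, and the difference was 0.51 ± 0.14 (SE, limma adjusted p = 0.495). Mrpl19 is the counterpart of a bacterial protein at the face between the subunits. Mrps36, the gene with the highest difference at 1.04 ± 0.27 (SE, limma adjusted p = 0.478), is described with its pseudogene below.

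The 4 genes with a lower mean in Atg7KO-Low were Mrpl46 (-0.15), Mrpl55 (-0.14), Mrps7 (-0.12) and Mrpl57 (-0.04), and in each the samples overlapped. Mrps7 binds the head of the small subunit RNA, as its bacterial counterpart does, and the other 3 are large subunit proteins of mitochondria. The median difference over the 75 genes lay between 0.24 and 0.38 in all 25 alternative settings, the lowest without WT-Low-409 and the highest without WT-Low-341. WT-Low-409 was the lowest of its group for 43 of the 75 genes. Paneth markers were lower in Atg7KO-Low in 7 of 7 and goblet markers in 7 of 8, none past the test, with the ranges given above. Enterocyte markers were higher in Atg7KO-Low in 6 of 9 and lower in 3, none past the test. The part of these cell types in the difference was not tested.

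In the EGFP high gate, the stem cell gate, most of the 75 genes were lower in Atg7KO, as were most genes in the top 20% by level. The median difference was -0.29 (Atg7KO minus WT), against -0.03 over all genes and -0.24 over genes in the top 20% by level. A lower mean in Atg7KO-High was found for 58 of the 75, for 8540 of 15873 genes tested and for 2436 of 3175 in the top 20%. The sign count is thus near that of the top 20%. No gene passed the test, and among all genes 0.00630% passed in each direction. At an unadjusted p under 0.05, 16 of the 75 (21.3%) were lower and 0 higher, against 5.99% of all genes for higher. The share for lower is above the 9.88% of all genes and near the 23.5% of genes in the top 20% by level. The samples did not overlap, with Atg7KO-High lower, for 14 genes (18.7%), against 15.2% of all genes and 32.3% of the top 20%, and with Atg7KO-High higher for 2 (Mrpl1 and Mrpl33), against 10.2% of all genes. The share without overlap was thus below that of the top 20%, also for the 47 members in it (19.1%).

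Among single genes the 4 smallest p in the lower direction belonged to Mrpl16, Mrpl35, Mrps22 and Mrpl38. Mrpl16 read 7.09, 7.25 and 7.28 in Atg7KO EGFP high samples, against 7.67, 8.39 and 8.20 in WT EGFP high samples. The samples did not overlap, and the difference was -0.88 ± 0.20 (SE, limma adjusted p = 0.131). Mrpl16 lies near the catalytic centre of the large subunit, as its bacterial counterpart does. Mrpl35 read 6.80, 7.13 and 7.43 in Atg7KO EGFP high samples, against 7.77, 8.21 and 7.98 in WT EGFP high samples. The groups again did not overlap, with a difference of -0.87 ± 0.22 (SE, limma adjusted p = 0.133). Mrpl35 is the counterpart of a small bacterial large subunit protein. Mrps22 read 6.61, 6.49 and 6.67 in Atg7KO EGFP high samples, against 6.96, 7.70 and 7.43 in WT EGFP high samples. All Atg7KO-High samples were lower, with a difference of -0.78 ± 0.23 (SE, limma adjusted p = 0.181). Mrps22 is a small subunit protein specific to mitochondria, in which human mutations cause a respiratory chain disorder. Mrpl38 read 6.27, 5.96 and 6.99 in Atg7KO EGFP high samples, against 6.99, 7.70 and 7.21 in WT EGFP high samples. The highest Atg7KO-High sample stood only just below the lowest WT-High sample, and the difference was -0.90 ± 0.29 (SE, limma adjusted p = 0.185). Mrpl38 is a large subunit protein of the central protuberance, with no bacterial counterpart.

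In the other direction, Mrpl53 had a difference of 0.49, Mrpl33 of 0.42, Mrpl41 of 0.29 and Mrpl1 of 0.20. All are large subunit proteins, and Mrpl1 forms the mobile stalk beside the site where spent transfer RNA leaves. Mrpl33 read 9.09, 9.05 and 8.91 in Atg7KO EGFP high samples, against 8.56, 8.88 and 8.34 in WT EGFP high samples, with no overlap and a limma adjusted p of 0.478. The median over the 75 genes varied with the samples left out and with the setting. It was -0.15 without WT-High-411, -0.18 without Atg7KO-High-356, -0.10 after cyclic loess and -0.13 after a further quantile normalization. With the array standard deviation as a covariate it was -0.04. That standard deviation did not overlap between the genotypes in this gate (1.90 to 1.98 in Atg7KO-High, 1.99 to 2.06 in WT-High). Array spread and genotype thus cannot be told apart there. WT-High-388 was the lowest of its group for 65 of the 75 genes, and WT-High-411 the highest for 62. With estimated array weights 5 genes passed the test, all lower in Atg7KO-High, among 465 lower and 238 higher of all genes. They were Mrpl10, Mrpl16, Mrpl35, Mrpl38 and Mrps22. Paneth markers were lower in Atg7KO-High in 7 of 7, goblet markers in 8 of 8 and enterocyte markers in 9 of 9, none past the test, and their part in the difference was not tested.

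**Figure D2:**
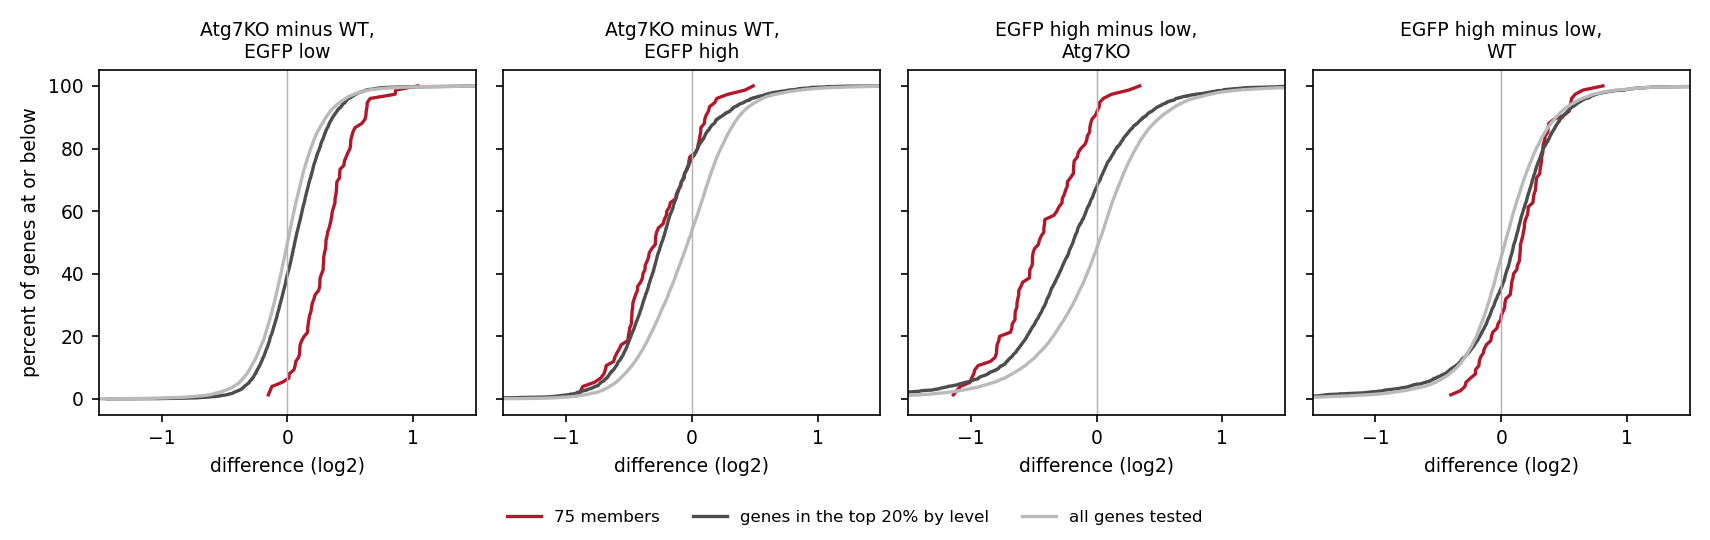
Cumulative percent of genes at or below each log2 difference, for the 75 mitochondrial ribosomal protein genes, for genes in the top 20% by level and for all genes tested, in the 4 comparisons. The curve of the 75 genes lies to the right of both others for Atg7KO minus WT in EGFP low (median 0.31) and has a median near that of genes in the top 20% by level in EGFP high (-0.29 against -0.24).

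Between the gates of Atg7KO mice, 11 of the 75 genes passed the test, all lower in EGFP high than in EGFP low (limma, adjusted p under 0.05). That is 14.7%, against 6.44% of all genes in the lower direction and 14.4% of genes in the top 20% by level. None passed in the higher direction, against 4.48% of all genes. The median difference was -0.46 (EGFP high minus low), against 0.02 over all genes and -0.19 over the top 20%. A lower mean in EGFP high was found for 68 of the 75, for 7611 of 15873 genes tested and for 2145 of 3175 in the top 20%. At an unadjusted p under 0.05, 36 (48%) were lower, against 14.4% of all genes and 29.8% of the top 20%. The samples did not overlap for 22 genes (29.3%), all lower in EGFP high, against 11.8% of all genes and 26.5% of the top 20%. The share that passed the test and the share without overlap were thus near those of the top 20%. Of the 47 members in the top 20%, 3 (6.38%) passed the test and 11 (23.4%) did not overlap, both below the shares of the top 20%. Thus 8 of the 11 calls came from genes of lower level. In the next 20% by level, which held 19 of the members, 9.51% of all genes were called lower. There 15.7% of all genes were lower without overlap. In the 20% after it, which held 7 members, these shares were 5.17% and 9.07%. The nearness of the 75 genes to the top 20% thus does not hold level by level. This comparison uses the same Atg7KO samples as the genotype comparisons above.

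Of the 11 called genes, 10 belong to the large subunit. Those with a bacterial counterpart are Mrpl16, Mrpl20, Mrpl22, Mrpl32, Mrpl35, Mrpl36 and Mrpl47. In Atg7KO mice Mrpl36 read 6.36, 6.53 and 6.71 in the EGFP high gate, against 7.71, 7.33, 7.82 and 7.62 in the EGFP low gate, a difference of -1.08 ± 0.17 (SE, limma adjusted p = 0.00194). Mrpl16 read 7.09, 7.25 and 7.28 in the EGFP high gate, against 8.07, 8.41, 8.48 and 8.30 in the EGFP low gate, a difference of -1.11 ± 0.19 (SE, limma adjusted p = 0.00275). In both genes every EGFP high sample lay below every EGFP low sample. Mrpl22 lines the tunnel through which the new peptide leaves. Mrpl22 read 5.68, 6.36 and 5.86 in the EGFP high gate, against 7.11, 7.00, 6.70 and 6.82 in the EGFP low gate (limma adjusted p = 0.0115). Mrpl20 is an early-binding protein of large subunit assembly in bacteria. Mrpl20 read 5.76, 5.75 and 6.23 in the EGFP high gate, against 7.08, 7.02, 6.85 and 6.73 in the EGFP low gate (limma adjusted p = 0.0117). Mrpl35 read 6.80, 7.13 and 7.43 in the EGFP high gate, against 8.11, 7.90, 7.91 and 7.92 in the EGFP low gate (limma adjusted p = 0.0171). Mrpl47 lies beside the tunnel exit, where ribosomes dock at the inner membrane. Mrpl47 read 6.58, 6.91 and 7.38 in the EGFP high gate, against 7.64, 8.12, 8.27 and 7.78 in the EGFP low gate (limma adjusted p = 0.0354). Mrpl32 is cut to its mature form by the m-AAA protease after import in yeast and mammals. Mrpl32 read 5.74, 5.76 and 6.48 in the EGFP high gate, against 6.84, 6.50, 6.92 and 6.81 in the EGFP low gate (limma adjusted p = 0.0370).

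The 4 called genes with no bacterial counterpart are Mrpl38, Mrpl43, Mrpl51 and Mrps22, the last being the small subunit call. Mrpl51 read 5.70, 6.06 and 5.71 in the EGFP high gate, against 6.80, 6.67, 6.77 and 6.93 in the EGFP low gate, a difference of -0.97 ± 0.20 (SE, limma adjusted p = 0.00893). Mrpl43 read 5.59, 6.17 and 5.93 in the EGFP high gate, against 6.64, 6.44, 6.83 and 6.85 in the EGFP low gate, a difference of -0.79 ± 0.18 (SE, limma adjusted p = 0.0114). Neither gene overlapped between the gates. Mrpl38 read 6.27, 5.96 and 6.99 in the EGFP high gate, against 7.80, 7.73, 7.42 and 7.23 in the EGFP low gate, a difference of -1.14 ± 0.27 (SE, limma adjusted p = 0.0154). Mrps22 read 6.61, 6.49 and 6.67 in the EGFP high gate, against 7.92, 7.67, 7.17 and 7.51 in the EGFP low gate, a difference of -0.98 ± 0.22 (SE, limma adjusted p = 0.0123). In each of these 11 genes the 3 EGFP high samples lay below the 4 EGFP low samples. The highest positive values of the 75 were Mrpl33 (0.34), Mrpl9 (0.26), Mrps17 (0.12) and Mrpl53 (0.05), none past the test.

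**Figure D3:**
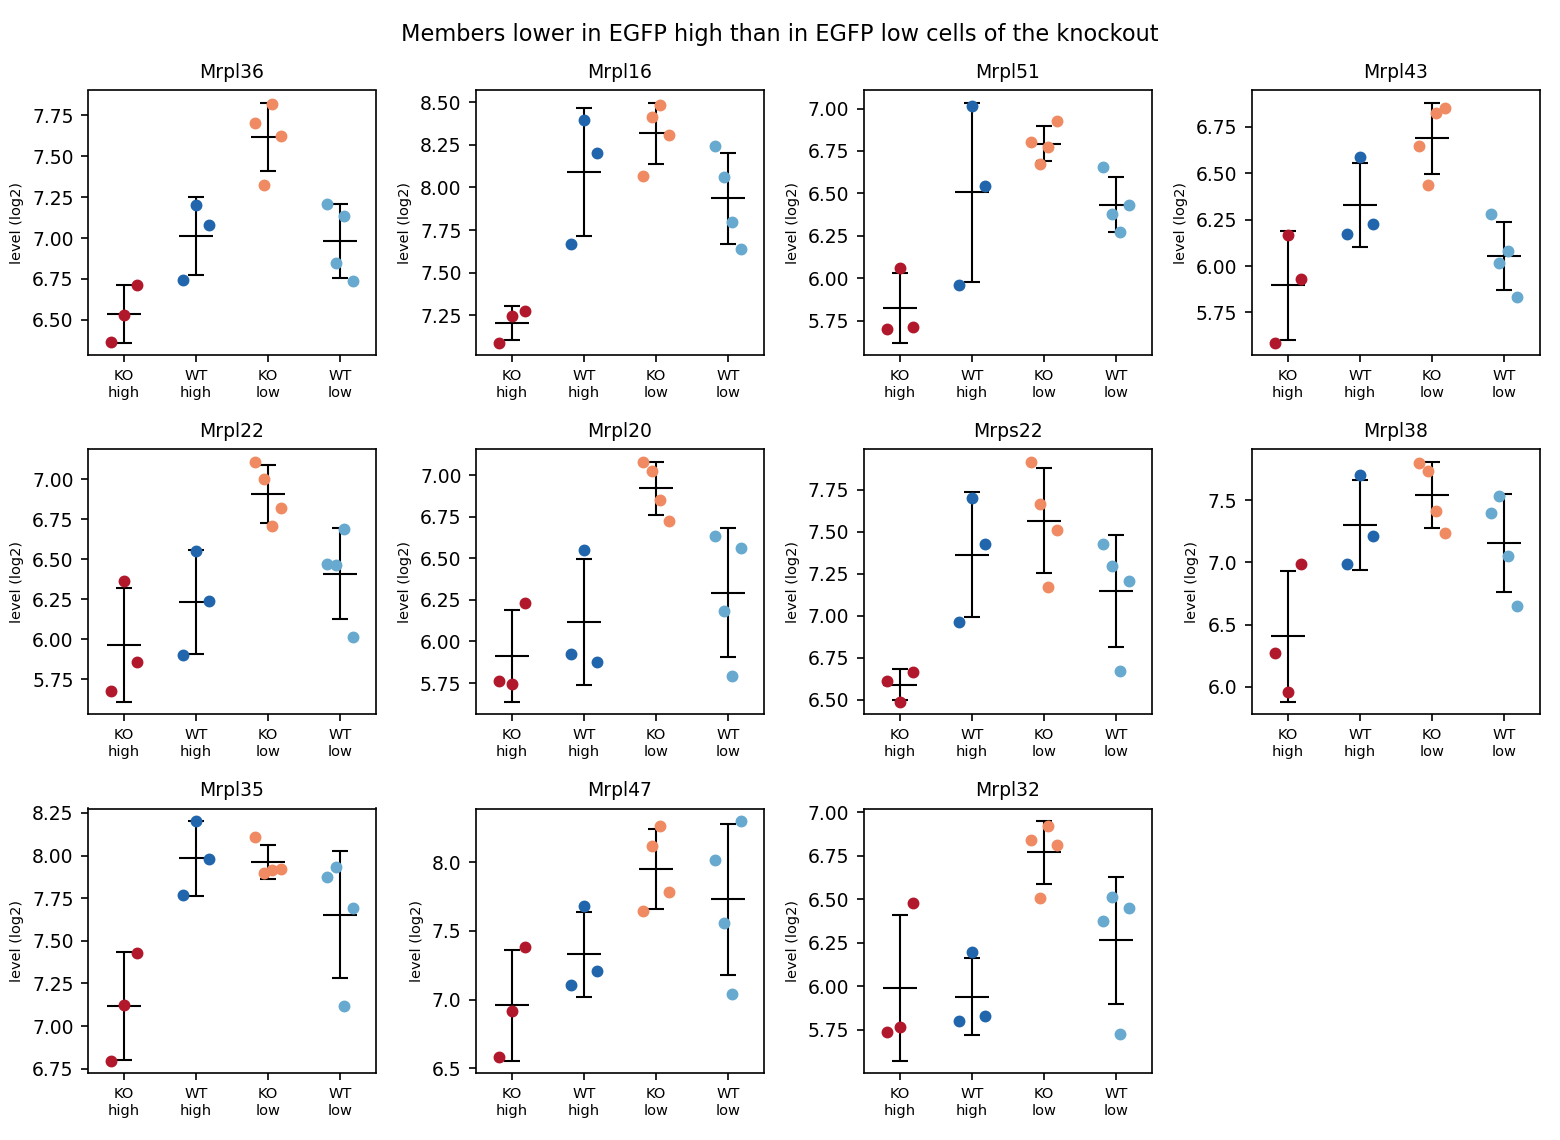
Log2 level of the mitochondrial ribosomal protein genes called between the gates of Atg7KO mice, 1 point per sample, by group, with the mean ± SD as bars. In each gene the 3 Atg7KO-High points lie below the 4 Atg7KO-Low points, and the WT groups stand beside them.

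How many genes passed depended on single samples. Array standard deviations were 1.90 to 1.98 in Atg7KO-High and 1.98 to 2.04 in Atg7KO-Low. They did not overlap, so array spread and gate cannot be told apart in the fit with this covariate. The count was 4 without Atg7KO-High-356, 5 without Atg7KO-High-348, 19 without Atg7KO-High-386 and 2 with the array standard deviation as a covariate, and the median difference was -0.30 without Atg7KO-High-356, -0.28 after a further quantile normalization, -0.30 after cyclic loess and -0.16 with the covariate. Mrpl16 and Mrpl36 passed in all 25 alternatives, with adjusted p up to 0.0435 and 0.0311. Mrpl47 and Mrpl32 passed in 16 of 25 each, and the other 7 in 21 to 24. In the same comparison goblet markers fell in EGFP high in 8 of 8, enterocyte markers in 6 of 9, Paneth markers in 4 of 7 and enteroendocrine markers in 3 of 6, and Lgr5 stem cell markers rose in 9 of 11 (adjusted p under 0.05). The part of this cell type makeup in the difference was not tested.

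In WT mice the gate difference ran the other way for most genes and its median was smaller in size. This comparison uses the same WT samples as the genotype comparisons above. The median was 0.16 (EGFP high minus low), against 0.03 over all genes and 0.11 over the top 20%. A higher mean in EGFP high was found for 56 of the 75, for 8679 of 15873 genes tested and for 2052 of 3175 in the top 20%. No gene passed the limma test, against 1.22% of all genes in each direction. At an unadjusted p under 0.05, 6 were higher (8%, against 8.88% of all genes and 13.6% of the top 20%) and 0 lower (5.91% of all genes and 8.54% of the top 20%). The samples did not overlap for 4 genes (5.33%, against 9.97% of all genes and 14.8% of the top 20%), Mrpl9, Mrpl19, Mrps10 and Mrps28, all higher in EGFP high, and 0 were lower without overlap, against 6.52% of all genes. Mrpl19 read 7.23, 7.59 and 7.52 in WT EGFP high samples, against 7.14, 7.09, 6.71 and 6.83 in WT EGFP low samples, a difference of 0.50 ± 0.15 (SE, limma adjusted p = 0.110). Mrpl50, a large subunit protein specific to mitochondria, had a difference of 0.54, Mrpl34 of 0.81 and Mrpl9 of 0.65. The lowest-p genes in the other direction were Mrpl47 (-0.40), Mrpl32 (-0.32), Mrpl54 (-0.29) and Mrpl55 (-0.28). Of the 11 genes that passed in Atg7KO mice, 4 had a lower mean in EGFP high in WT mice as well, Mrpl47, Mrpl32, Mrpl22 (-0.18) and Mrpl20 (-0.17), none past the test there. The WT median was 0.06 without WT-High-411, 0.09 without WT-Low-409 and 0.29 without WT-High-388. It was 0.09 after a further quantile normalization, 0.07 after cyclic loess and 0.09 with the array standard deviation as a covariate.

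The genotype difference itself was compared between the gates, as an interaction in the same fit. The 2 genotype comparisons share no samples, and the same contrast is the difference of the gate comparisons, Atg7KO minus WT. The median of this difference of differences was -0.59 (EGFP high minus EGFP low), against -0.03 over all genes and -0.30 over the top 20%. Values below 0 were found for 68 of the 75, for 8403 of 15873 genes tested and for 2446 of 3175 in the top 20%. No gene passed the limma test, and over all genes 1 passed in the higher direction (0.00630%) and 0 in the lower. At an unadjusted p under 0.05, 34 of the 75 (45.3%) were below 0, against 8.49% of all genes and 20.3% of the top 20%, and 0 were above 0, against 5.53% of all genes. Of the 75 genes, 54 (72%) were lower in Atg7KO in the EGFP high gate and higher in the EGFP low gate, against 29.3% of all genes. This share was not counted for the top 20% by level. Of those 3175 genes, 2436 were lower in the EGFP high gate and 1916 higher in the EGFP low gate. All genes are thus a low reference for genes of this level. Of the 75, a further 17 were higher in both gates, 4 lower in both and 0 higher in EGFP high and lower in EGFP low. For 2 of the 75 genes, Mrpl36 and Mrpl43, Atg7KO was lower in EGFP high and higher in EGFP low without overlap in either gate. So it was for 44 of 15873 genes tested. Genes without overlap in the reverse pattern were not counted over all genes, nor was either pattern for the top 20%.

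Mrpl16 had the smallest p of the interaction, at -1.26 ± 0.27 (SE, limma adjusted p = 0.176). Mrpl36 had -1.11 ± 0.24 and Mrpl43 -1.07 ± 0.25 (SE, limma adjusted p = 0.176 for each). Mrpl35 had -1.17 ± 0.29 (SE, limma adjusted p = 0.195). Mrpl34, the counterpart of a very small bacterial protein, had the most negative value, -1.46 ± 0.45 (SE, limma adjusted p = 0.242). The median was -0.39 after a further quantile normalization, -0.35 after cyclic loess and -0.31 with the array standard deviation as a covariate.

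**Figure D4:**
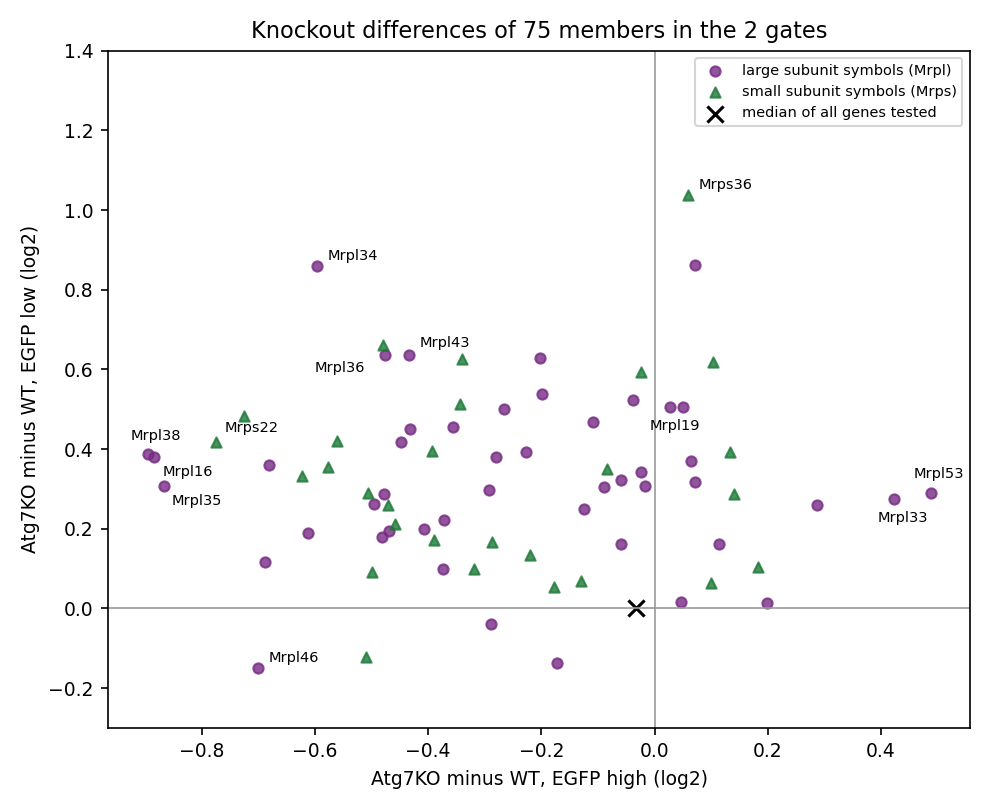
Log2 difference Atg7KO minus WT of each of the 75 genes in the EGFP high gate (x axis) and in the EGFP low gate (y axis), circles for Mrpl and triangles for Mrps, with the median of all genes tested as a cross. Of the 75 genes, 54 lie at the upper left, lower in Atg7KO-High and higher in Atg7KO-Low.

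Values for the subunits, taken by symbol, are given side by side. For the 47 large subunit genes the median differences were -0.27 (Atg7KO minus WT, EGFP high), 0.31 (Atg7KO minus WT, EGFP low), -0.49 (EGFP high minus low, Atg7KO) and 0.15 (EGFP high minus low, WT). For the 28 small subunit genes they were -0.34, 0.31, -0.44 and 0.20 in the same order. Of the 11 calls between the gates of Atg7KO mice, 10 were in large subunit genes and 1 in a small subunit gene. By whether the protein has a bacterial counterpart, the medians of the 45 genes with one were -0.22, 0.30, -0.30 and 0.17, and those of the 30 without one -0.41, 0.34, -0.53 and 0.16. The difference between these groups of genes was not tested. Genes with an ETS motif in the start region (24) had medians of -0.34, 0.39, -0.48 and 0.18, and the 42 tested genes with a start region and no ETS motif -0.31, 0.29, -0.48 and 0.15. Of the 10 called genes with a start region, 4 held an ETS motif, 2 a YY1 motif, 1 an NRF1 motif and 3 none.

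Some members differ in role from what their symbol says. Mrps18a and Mrps18b are paralogues of 1 bacterial protein, and Mrps18a and Mrps30 sit in the large subunit. Mrps18a had differences of -0.13 and 0.07 (Atg7KO minus WT, EGFP high and EGFP low), and Mrps18b of -0.73 and 0.48. Mrps18b read 7.57, 7.43 and 7.71 in Atg7KO EGFP high samples, against 7.92, 8.65 and 8.31 in WT EGFP high samples, with no overlap and a limma adjusted p of 0.323. Mrps30 had -0.58 and 0.35 in the same comparisons. Mrpl12, the stalk protein that is also known to bind the mitochondrial RNA polymerase in human cells, had -0.29 and 0.30. Mrps12, of the decoding centre, had -0.34 and 0.63. Mrps11 and Mrpl46 share a start region on opposite strands. Mrps11 had -0.46 in EGFP high and 0.21 in EGFP low, and Mrpl46 had -0.70 and -0.15. None of these values passed the test.

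Mrps36 is named for the ribosome and is known as a subunit of the alpha-ketoglutarate dehydrogenase complex of the citric acid cycle. Mrps36 read 7.10, 5.91, 6.74 and 6.20 in Atg7KO EGFP low samples, against 5.75, 5.13, 5.94 and 4.97 in WT EGFP low samples, and the groups overlapped. Mrps36-ps1, named as a pseudogene copy of it, averaged 5.48 ± 0.61 in Atg7KO-Low and 4.01 ± 0.48 in WT-Low (SD, n = 4 each), a difference of 1.47 ± 0.28 (SE, limma adjusted p = 0.166). Between the gates of Atg7KO mice it fell by 1.96 (limma adjusted p = 0.00159), while Mrps36 had -0.77 (limma adjusted p = 0.107). Signal from the gene and its copy may be shared between their probes, so both values are uncertain.

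The other genes of mitochondrial translation were taken from lists by role. Of 5 further subunits with other symbols, 4 were tested (Dap3, Chchd1, Ptcd3 and Gadd45gip1) and 0 passed the limma test in any comparison, nor were any at an unadjusted p under 0.05. Of 12 translation factors, 2 passed between the gates of Atg7KO mice. In EGFP high 1 was lower (8.33%, against 6.44% of all genes) and 1 higher (against 4.48% of all genes). Gfm1, the elongation factor that moves the ribosome along the message, averaged 7.25 ± 0.12 in EGFP high (n = 3) and 8.14 ± 0.24 in EGFP low (SD, n = 4; limma adjusted p = 0.0171). Guf1, a GTPase that binds mitochondrial ribosomes in yeast, averaged 7.96 ± 0.15 in EGFP high (n = 3) and 7.23 ± 0.27 in EGFP low (SD, n = 4) and was higher in EGFP high (limma adjusted p = 0.0361). Of 23 assembly factors 0 passed in any comparison, and at an unadjusted p under 0.05 3 were lower in Atg7KO-High than in WT-High (Mtg1 -0.66, Ddx28 -0.50, Dhx30 -0.54), which is 13.0%, against 9.88% of all genes. Of 16 mitochondrial aminoacyl-tRNA synthetases tested, 1 passed: Fars2, which charges the phenylalanine tRNA, with -0.58 between the gates of Atg7KO mice (limma adjusted p = 0.0308). That is 6.25%, near the 6.44% of all genes called lower in that comparison. Of 15 genes of mitochondrial transcription and RNA processing, 1 passed: Trmt10c, a subunit of mitochondrial RNase P, with -0.67 in that comparison (limma adjusted p = 0.0481). That is 6.67%, also near the share of all genes.

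For 74 nuclear genes of the respiratory chain and ATP synthase the median differences were 0.03 (Atg7KO minus WT, EGFP high), 0.22 (Atg7KO minus WT, EGFP low), -0.15 (EGFP high minus low, Atg7KO) and 0.04 (EGFP high minus low, WT). In the EGFP low gate 69 of the 74 had a higher mean in Atg7KO-Low, none past the test and 9 (12.2%) at an unadjusted p under 0.05, against 3.86% of all genes and 6.90% of the top 20%. In that gate 10 of the 74 (13.5%) were higher without overlap, against 1.71% of all genes and 3.46% of the top 20%. Between the gates of Atg7KO mice 8 of the 74 (10.8%) fell in EGFP high, against 6.44% of all genes and 14.4% of the top 20%. Among them were Sdhb, the iron-sulphur subunit of complex II, at -0.80 (limma adjusted p = 0.00799), and Uqcrfs1, the Rieske protein of complex III, at -0.79 (limma adjusted p = 0.0188). Sdhb and Uqcrfs1 are not the largest falls, since the lowest difference of the 74 genes was -2.39. For 61 cytosolic ribosomal protein genes the medians were 0.08, 0.19, 0.04 and 0.12 in the same order. In the EGFP low gate 48 of those 61 had a higher mean in Atg7KO-Low. Between the gates of Atg7KO mice 2 of the 61 rose in EGFP high (Rps3 and Rpl22l1) and 1 fell (Rpl41), against 4.48% of all genes that rose and 6.44% that fell.

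The 75 genes also varied together within groups. With each group's mean removed, the mean correlation between pairs of these genes over the 14 arrays was 0.30, against 0.18 for the respiratory chain genes, 0.06 for cytosolic ribosomal protein genes and 0.00 for all genes tested. It was 0.30 among large subunit genes and 0.29 among small subunit genes. These pairs share their arrays and their level range, so the values describe these libraries only. The median SD of the 75 genes was 0.24 in Atg7KO-High, 0.29 in WT-High, 0.23 in Atg7KO-Low and 0.29 in WT-Low, while over all genes it was 0.23 in Atg7KO-High, 0.17 in WT-High, 0.24 in Atg7KO-Low and 0.25 in WT-Low. In WT-High they spread more between samples than the median gene, with WT-High-388 low and WT-High-411 high.

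**Figure D5:**
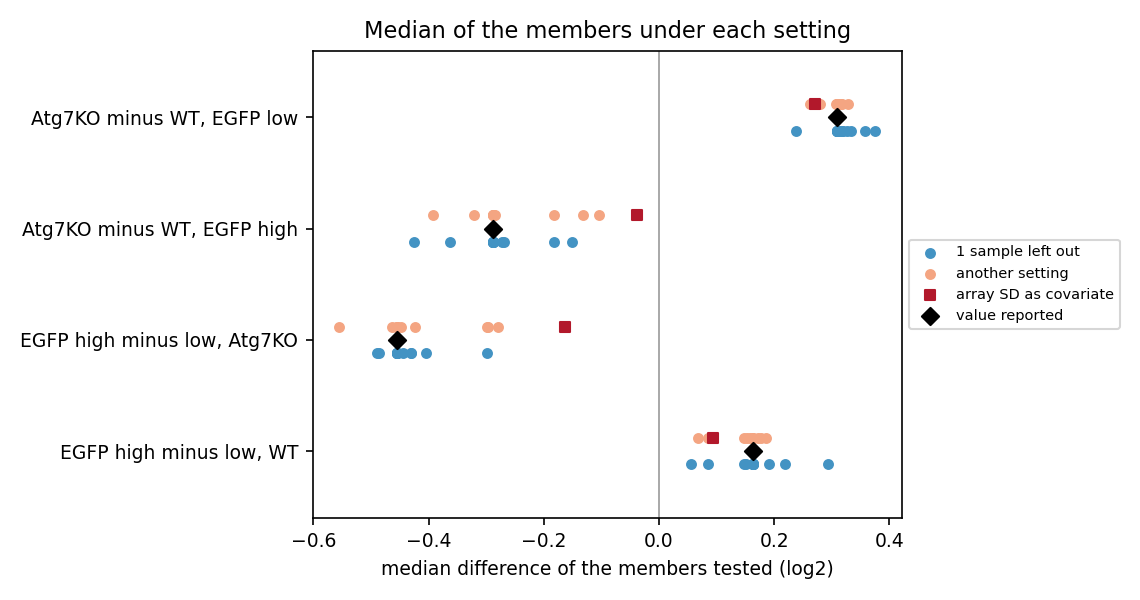
Median log2 difference of the mitochondrial ribosomal protein genes in each comparison as reported (diamonds), with 1 sample left out (lower row of points), under other settings (upper row) and with the array standard deviation as a covariate (squares). The median for Atg7KO minus WT in EGFP low stays between 0.24 and 0.38, and that in EGFP high reaches -0.04 with the array standard deviation as a covariate.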

How the data were processed

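The deposited table holds log2 values. Per the submitters' processing notes the authors obtained them with Expression Console and RMA (background correction, quantile normalization, summary per probe set). The sources used here give neither tool versions nor the probe grouping. RMA can narrow large differences and assumes that most genes do not differ. Per the labels' protocols, 1 ng of RNA per sample was amplified. The table held 25429 probe sets, 754 without a symbol in the platform annotation. Groups came from the sample titles. The level filter used all probe sets and kept 15873 named genes. Group means over the 14 arrays were fitted with limma 3.58.1 (lmFit, eBayes, two-sided) in R 4.3.3, with 10 residual and 4.54 prior degrees of freedom, without a block, and p-values were adjusted by Benjamini-Hochberg over all 15873 genes. The fit was tested on simulated data. The labels do not say whether a title number names the animal, and the samples were fitted as unpaired: deviations of same-numbered samples correlated at -0.04 to 0.18 for the 3 shared numbers. Precision is limited by the number of arrays. Named are, in each comparison, called genes (up to 10 per direction), filled to 4 per direction by smallest p, plus genes of uncertain place and the paralogues of Mrps18. Mrpl32, the call with the largest p between the gates of Atg7KO mice, was named in addition, and genes named from counts of 5 or fewer were chosen after their values were seen. The genes and lists were chosen with earlier results of these data known. Alternatives changed the normalization, filter, weights, prior, covariate, block, samples in the fit, and left out each sample. Mrpl27 and Mrps18c were not analysed here.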

Additional observations from a re-analysis of the deposited data

Results flagged for a closer look

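In groups of 4, a sample that stood far from the other 3 (Dixon's test, critical value 0.829) was found in 6 of 66 groups of values tested, and chance gives about 1 in 20. Mrpl12 read 8.92 in WT-Low-409, with the nearest sample at 9.88. Mrpl35 read 8.11 in Atg7KO-Low-356, with the nearest at 7.92. Mrpl46 read 7.51 in Atg7KO-Low-356, with the nearest at 8.56. Mrpl55 read 8.62 in Atg7KO-Low-387, with the nearest at 8.33. Mrps24 read 9.09 in Atg7KO-Low-387, with the nearest at 8.74. Mrpl9 read 6.71 in WT-Low-411, with the nearest at 7.67.

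For Mrpl36 and Mrpl43 every Atg7KO sample moved one way against WT in EGFP high and the opposite way in EGFP low. The difference of the genotype effects, EGFP high minus EGFP low, was -1.11 for Mrpl36 and -1.07 for Mrpl43, with a limma adjusted p of 0.176 for each, which does not pass the threshold.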

How the results depend on the processing

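The median of the mitochondrial ribosomal protein genes kept its sign in each of the 5 comparisons under all alternatives run. These were 25, and 24 for the difference of genotype effects. The Atg7KO minus WT median in EGFP high was -0.104 after cyclic loess and -0.0375 with the array standard deviation as a covariate. The EGFP high minus low median of Atg7KO mice was -0.280 after a further quantile normalization and -0.163 with the covariate, and the difference of genotype effects -0.393, -0.351 (cyclic loess) and -0.308 (covariate). The cause was not tested. Leaving out 1 sample at a time gave medians of -0.43 to -0.15 (Atg7KO minus WT, EGFP high), 0.24 to 0.38 (Atg7KO minus WT, EGFP low), -0.49 to -0.30 (EGFP high minus low, Atg7KO), 0.06 to 0.29 (EGFP high minus low, WT) and -0.72 to -0.49 (difference), and counts of 4 to 19 called genes between the gates of Atg7KO mice and 0 to 0 elsewhere. With array weights 5 genes passed for Atg7KO against WT in EGFP high and 1 (Mrpl19) between the gates of WT mice, and with the covariate 2 passed between the gates of Atg7KO mice. Median centring moved the median of all genes to -0.14 for Atg7KO minus WT in EGFP high and -0.16 for the difference, where the 75 genes had -0.39 and -0.72. Signs of single genes were followed only for those called or named by smallest p in each comparison, and the next sentence covers these alone. Signs turned only for values that passed no test: Mrpl46 in EGFP low (-0.30 to 0.127 with 1 sample left out, the highest without Atg7KO-Low-356, and 0.0252 without WT-Low-411 or the arrays of narrowest spread), Mrpl57 in EGFP low (-0.13 to 0.0653 with 1 left out, 0.0176 with array weights, 0.0621 without Atg7KO-Low-356, 0.0282 without WT-Low-407, 0.0653 without WT-Low-411 or the narrowest arrays), Mrpl53 between the gates of Atg7KO mice (-0.134 to 0.251 with 1 left out, -0.0453 after median centring, -0.00934 with array weights, -0.134 without Atg7KO-Low-387, -0.0716 without Atg7KO-High-356 or the narrowest arrays) and Mrps17 there (-0.0221 to 0.345 with 1 left out), and for the difference Mrps24 (-0.0615 to 0.228 with 1 left out, -0.0432 after median centring, -0.0659 without the narrowest arrays), Mrpl33 (-0.0150 to 0.371 with 1 left out, -0.201 with the covariate, -0.0536 without the narrowest arrays) and Mrpl53 (-0.0466 to 0.471 with 1 left out). With the title number as a random replicate block (correlation 0.0732), 13 genes passed between the gates of Atg7KO mice and 0 in the other comparisons. For these counts of called genes the shares over all genes in the same setting are not given. The fit on 2 groups alone was not run for the difference, which needs all 4.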
